A study of Homo sapiens with 6 samples.

Results

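The genes described here are the 9 SUMO proteases SENP1, SENP2, SENP3, SENP5, SENP6, SENP7, DESI1, DESI2 and USPL1, together with UXT, a binding partner of SENP1. They were chosen by name, as rows of the expression table whose Ensembl gene ID belongs to one of these 10 symbols. All 10 were found among the 58288 genes of the table, and all 10 passed the filter of a mean of at least 1 FPKM that left 12634 genes for testing. FPKM is a fragment count scaled to transcript length and library size, so that levels of different genes can be set side by side.

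SUMO is a small protein that is attached to lysines of other proteins, most of them nuclear, and often restrains the activity of transcription factors. An E1, an E2 and several E3 enzymes attach it. SUMO proteases cut it off again, and some of them also process SUMO precursors or shorten SUMO chains. MYB, a transcription factor of blood progenitor cells, is itself modified by SUMO and also binds SUMO, and the study asked how this status changes the genes that depend on MYB. UXT, a small prefoldin-like protein, was studied as an inhibitor of SENP1.

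The RNA was from K562, a line of human erythroleukemia cells, taken 24 h after transfection of an siRNA against the 3′ untranslated region of endogenous MYB. In 3 libraries the cells stably expressed 3xFLAG-2KR-Myb-HA, in which the SUMO-acceptor lysines are changed to arginine (2KR-MYB rescue), and in the other 3 they expressed 3xFLAG-ANAA-Myb-HA, whose SUMO-interaction motif is mutated (ANAA-MYB rescue). The constructs lack the untranslated region and escape the siRNA. Both groups were grown with 200 µg/ml G418, and each mutant is represented by 1 single cell clone, so the mutant and the clone cannot be told apart and p-values measure the spread between cultures of these clones. Cells with WT-MYB, and those without a rescue, were not analysed here, and every difference below is 2KR-MYB rescue minus ANAA-MYB rescue.

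Summed over genes, FPKM came to between 579920 and 633662 in each library. Among values under 0.1 FPKM, between 3.58% and 10.8% of the ratios between a pair of libraries fell within 1% of the commonest ratio, and the 15 commonest ratios gave one set of relative depths to within 2.37%. Relative to the shallowest library (2KR-MYB replicate 2), the depth was 1.115 and 1.123 in 2KR-MYB replicates 1 and 3, and 1.24, 1.13 and 1.39 in ANAA-MYB replicates 1 to 3. The number of reads behind a value is unknown. All 11 markers fixed for K562, GATA1 and the globin genes HBG1 and HBG2 among them, stood at 1 FPKM or more in every library. Their summed level was 1871 to 1999 FPKM with 2KR-MYB and 2104 to 2495 FPKM with ANAA-MYB. Of these 11, 4 passed the test (3 higher with ANAA-MYB), where 13.0% of all tested genes passed. Of 12 markers of other cell types, CD3D and EPCAM were among those at 1 FPKM or more in every library and MS4A1 was at 0 in all of them. The summed level of these 12 was 78.9 to 86.5 FPKM with 2KR-MYB and 92.1 to 112 FPKM with ANAA-MYB. Only 4 of the 12 averaged 1 FPKM or more and were tested, and 1 of these passed in each direction. CD3D passed with 26.1 to 30.6 FPKM against 42.8 to 62.7 FPKM, and COL1A1 passed the other way with 1.34 to 2.86 FPKM against 0.411 to 0.648 FPKM. EPCAM, at 48.1 to 50.2 FPKM against 43.1 to 45.5 FPKM, did not pass. The other markers listed for the same cell types were lower. Beside CD3D (T cell), CD3E was at 0.18 to 0.53 FPKM and CD2 at 0.029 FPKM or less. Beside EPCAM (epithelium), KRT5 was at 0.074 FPKM or less, and beside COL1A1 (fibroblast), DCN was at 0.11 to 0.28 FPKM. The part of either marker list in the results below was not tested. In bulk RNA such as this, fewer cells of a kind and less RNA per cell cannot be told apart.

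MYB (ENSG00000118513, GRCh38 chromosome 6, 135181308 to 135219172) measured 69.0, 61.2 and 67.5 FPKM with 2KR-MYB and 53.6, 55.3 and 62.0 FPKM with ANAA-MYB. The groups overlapped, since the highest ANAA-MYB library lay above the lowest 2KR-MYB library. The log2 fold change was 0.21 (95% interval 0.046 to 0.37, limma adjusted p = 0.062). These values can hold the transcripts of both the endogenous gene and the constructs.

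UXT had the highest level of the 10 genes in all 6 libraries, with a mean of 91.0 FPKM over the libraries, at the 91.6th percentile of the tested genes. DESI2 (35.3 FPKM), SENP2 (33.1 FPKM), SENP3 (32.2 FPKM), SENP6 (28.6 FPKM) and SENP1 (27.1 FPKM) came next. In this group DESI2 and SENP2 changed places between libraries, as did SENP2 and SENP3, DESI2 and SENP3, and SENP6 and SENP1. SENP1 lay above SENP3 only in 2KR-MYB replicate 2 (28.2151 against 28.2139 FPKM), while SENP3 lay above SENP6 in all 6 libraries. Below them DESI1 (20.02 FPKM), SENP5 (18.3 FPKM), USPL1 (12.7 FPKM) and SENP7 (7.99 FPKM) kept the ranks 7, 8, 9 and 10 in every library. SENP7, a protease that shortens SUMO chains, was thus the least abundant, at the 36.5th percentile of the tested genes.

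**Figure D1:**
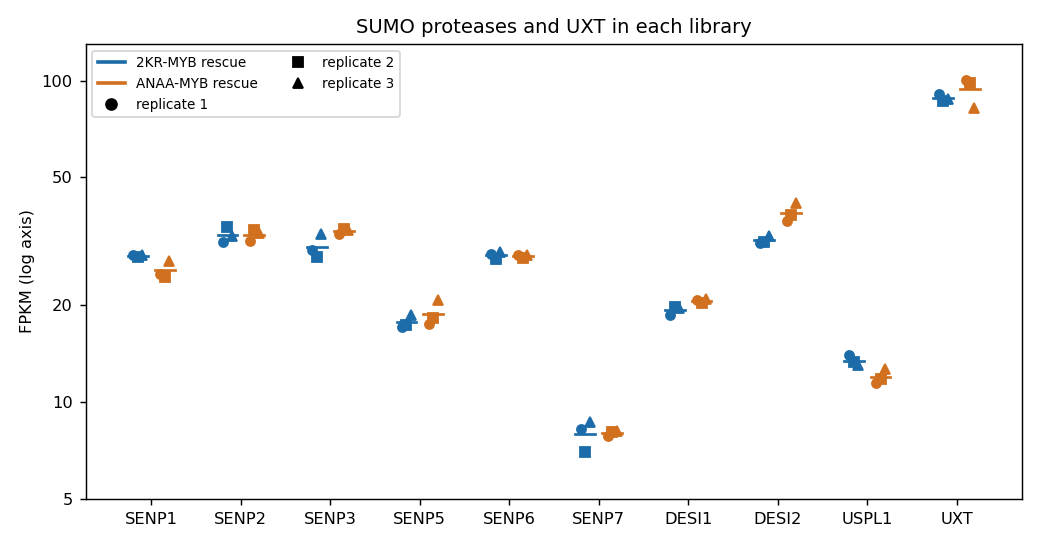
FPKM of the 10 genes (logarithmic axis) in each library, with circles, squares and triangles for replicates 1, 2 and 3 and a bar at the mean of each rescue (blue, 2KR-MYB; orange, ANAA-MYB). UXT stood highest (mean 91.0 FPKM) and SENP7 lowest (7.99 FPKM), and in DESI2 all 3 ANAA-MYB libraries lay above the 2KR-MYB libraries.

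No gene of the 10 passed the test of the difference between the rescues. By limma on log2(FPKM + 1), 0 of the 10 passed a Benjamini-Hochberg adjusted p of 0.01, the threshold of the study, where 13.0% of all tested genes did (5.57% in the direction of 2KR-MYB and 7.42% in that of ANAA-MYB). Upper quartile scaling turned the larger side of these calls, with 54.5% of them higher with 2KR-MYB in place of 42.9%. At an adjusted p under 0.05 there was 1 of the 10 (DESI2), against 26.9% of all tested genes. Which genes lay under 0.05 depended on the scaling. After upper quartile scaling they were SENP1 (limma adjusted p = 0.029), USPL1 (0.037) and DESI2 (0.013). After quantile normalization they were SENP1 (limma adjusted p = 0.038) and DESI2 (0.012). The share of all tested genes under 0.05 was not counted for these scalings. At an unadjusted p under 0.05 there were 4 of the 10 genes (SENP1 and USPL1 higher with 2KR-MYB, SENP3 and DESI2 higher with ANAA-MYB), against 39.4% of all tested genes. The libraries of the rescues did not overlap in 5 of the 10, against 44.9% of all tested genes. The median log2 fold change was -0.045 over the 10 genes and -0.015 over all tested genes. These became -0.0045 and 0.024 after upper quartile scaling, and -0.016 and 0.0046 after quantile normalization. Without these scalings, the median size of the change was 0.089 over the 10 genes and 0.14 over all tested genes. The difference farthest from 0, in DESI2, was 0.827-fold on the log2(FPKM + 1) scale, a scale that understates changes of low genes.

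**Figure D2:**
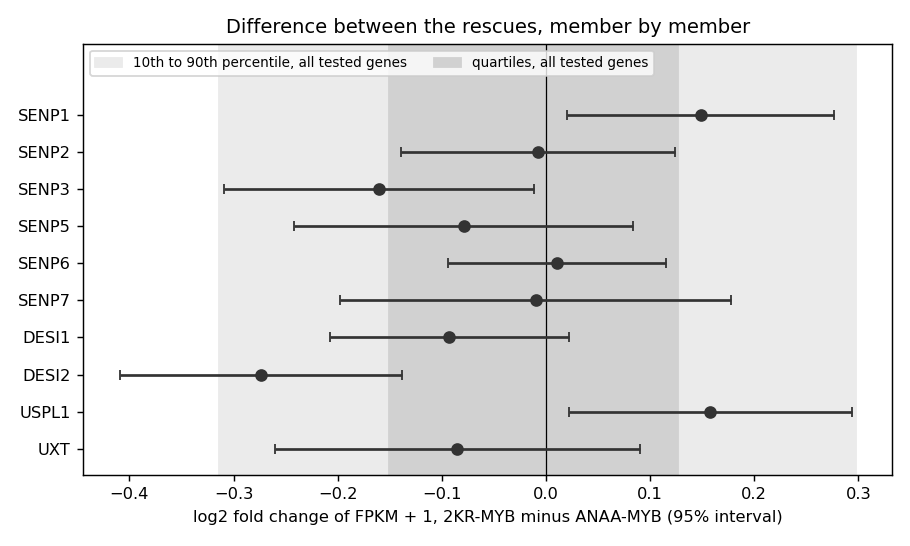
Log2 fold change of FPKM + 1 (2KR-MYB minus ANAA-MYB) of each gene with its 95% interval from limma, over bands for the quartiles and the 10th to 90th percentile of all tested genes. DESI2 (-0.27) stood farthest from 0 and inside the wider band, which runs from -0.31 to 0.30.

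Promoter windows of 300 bases (250 before to 50 after a transcript start, RefSeq on GRCh38.p14) were held for 7 of the 10 genes, in 9 windows, and not for SENP2, SENP7 and USPL1. They were searched on both strands for the MYB recognition sequences CAACGG or CAACTG and also TAACGG or TAACTG. A match stood in 1 of the 3 windows of SENP1 and in the windows of DESI2 and UXT, 3 of 9 windows, where 25.7% of all 35116 windows of this length held one. The stretches of 30 bases around these matches are shown because the study changed MYB, with the match in capitals, read on the strand of the gene. SENP1 lies on the minus strand (chr12:48105806-48105835, match in reverse orientation). Its match is 34 bases after the start that lies farthest inside the gene of the 3 starts used, and the windows of its other starts held none. DESI2 lies on the plus strand (chr1:244653091-244653120, match 23 bases before its start) and UXT on the minus strand (chrX:47659202-47659231, match 39 bases before its start).
SENP1: tggccgccggtggCCGTTAggctacctgag
DESI2: ggagcgggccgcCAACGGtccggccccgtc
UXT: cccgcccctcccCAACTGgctatttggttg

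A match is a description of the letters in the window. No binding of MYB was measured in these libraries, and of the genes shown SENP1 (0.15) had a log2 fold change above 0 and DESI2 (-0.27) and UXT (-0.085) below it.

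SENP1 and SENP2 are close relatives that act in the nucleus and at the nuclear envelope. SENP1 (ENSG00000079387, chromosome 12, 48042897 to 48106079) measured 28.7, 28.2 and 28.7 FPKM with 2KR-MYB and 25.05, 24.5 and 27.5 FPKM with ANAA-MYB. The 2KR-MYB libraries all lay higher, and the third ANAA-MYB replicate came nearest. The means were 28.5 ± 0.288 and 25.7 ± 1.63 FPKM (SD, n = 3 each), and the log2 fold change of 0.15 (95% interval 0.020 to 0.28) had an adjusted p of 0.084 in limma. Permuting the library labels gave an exact two-sided p = 0.1, the smallest that 3 libraries against 3 allow. SENP2 (ENSG00000163904, chromosome 3, 185586295 to 185633551) measured 31.4, 34.9 and 32.8 FPKM with 2KR-MYB and 31.7, 34.4 and 33.5 FPKM with ANAA-MYB. These ranges almost coincided, and the log2 fold change was -0.0077, with a 95% interval of -0.14 to 0.12 (limma adjusted p = 0.94). A difference of more than 1.09-fold with 2KR-MYB higher, or below 0.908-fold, lay outside that interval.

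SENP3 and SENP5 are found mainly in the nucleolus and prefer SUMO2 and SUMO3. SENP3 (ENSG00000161956, chromosome 17, 7561919 to 7571969), which acts in the maturation of ribosomes, measured 29.8, 28.2 and 33.3 FPKM with 2KR-MYB and 33.4, 34.5 and 34.2 FPKM with ANAA-MYB. The groups were apart by a narrow margin, as the third 2KR-MYB replicate reached the lowest ANAA-MYB library to within 0.1 FPKM. The log2 fold change was -0.16 (95% interval -0.31 to -0.011, limma adjusted p = 0.10; exact two-sided permutation p = 0.1). The read-through gene SENP3-EIF4A1, which covers SENP3 and can share its reads, was at 0.860 to 1.66 FPKM. It measured 1.66, 1.08 and 1.32 FPKM with 2KR-MYB and 0.975, 0.998 and 0.860 FPKM with ANAA-MYB, without overlap. Its log2 fold change was 0.27 (limma adjusted p = 0.14), the opposite direction to SENP3, and how reads were shared between the 2 genes was not tested. SENP5 (ENSG00000119231, chromosome 3, 196867920 to 196934714) measured 17.2, 17.4 and 18.6 FPKM with 2KR-MYB and 17.5, 18.3 and 20.7 FPKM with ANAA-MYB. Its groups overlapped, with a log2 fold change of -0.079 (95% interval -0.24 to 0.084, limma adjusted p = 0.44). The log2 fold change of SENP5 was -0.012 when the third ANAA-MYB replicate, the highest library, was left out.

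SENP6 and SENP7 shorten chains of SUMO2 and SUMO3. SENP6 (ENSG00000112701, chromosome 6, 75601880 to 75718281) had the narrowest 95% interval of the 10 genes, with 28.8, 27.8 and 29.4 FPKM with 2KR-MYB and 28.6, 28.2 and 28.6 FPKM with ANAA-MYB. All ANAA-MYB libraries lay within the range of the 2KR-MYB libraries. Its log2 fold change was 0.011, with a 95% interval of -0.094 to 0.12 (limma adjusted p = 0.88), which is a ratio between 0.937 and 1.08. SENP7 (ENSG00000138468, chromosome 3, 101324205 to 101513212) measured 8.23, 6.99 and 8.70 FPKM with 2KR-MYB and 7.83, 8.09 and 8.11 FPKM with ANAA-MYB. Here the 2KR-MYB libraries spread more widely (SD 0.885 against 0.153 FPKM, n = 3 each), with the second replicate lowest. The log2 fold change was -0.010 (95% interval -0.20 to 0.18, limma adjusted p = 0.94). The signs of SENP2 and SENP7 turned after upper quartile scaling and after quantile normalization.

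Within a library, the share of each gene in the summed FPKM of the 6 SENP genes does not depend on how libraries are scaled to each other. The sum itself was 144, 144 and 152 FPKM with 2KR-MYB and 144, 148 and 153 FPKM with ANAA-MYB, so the groups overlapped. SENP1 made up 19.9%, 19.6% and 18.9% of it with 2KR-MYB and 17.4%, 16.5% and 18.0% with ANAA-MYB, a difference of 2.1837 percentage points. SENP3 made up 20.7%, 19.6% and 22.0% with 2KR-MYB and 23.2%, 23.3% and 22.4% with ANAA-MYB, a difference of -2.21 percentage points. Both shares kept the rescues apart, in opposite directions. The shares of SENP2, SENP5, SENP6 and SENP7 differed by 0.18, -0.58, 0.39 and 0.037 percentage points. For SENP2, SENP6 and SENP7 the libraries of the rescues overlapped, and the same held for SENP5, whose lowest ANAA-MYB share of 12.2% lay below the highest 2KR-MYB share of 12.3%. The ratio of SENP1 to SENP3, taken up after these values were seen, was 0.965, 1.00 and 0.861 with 2KR-MYB and 0.7499, 0.709 and 0.805 with ANAA-MYB. Shares and ratios are given as descriptions with no test.

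**Figure D3:**
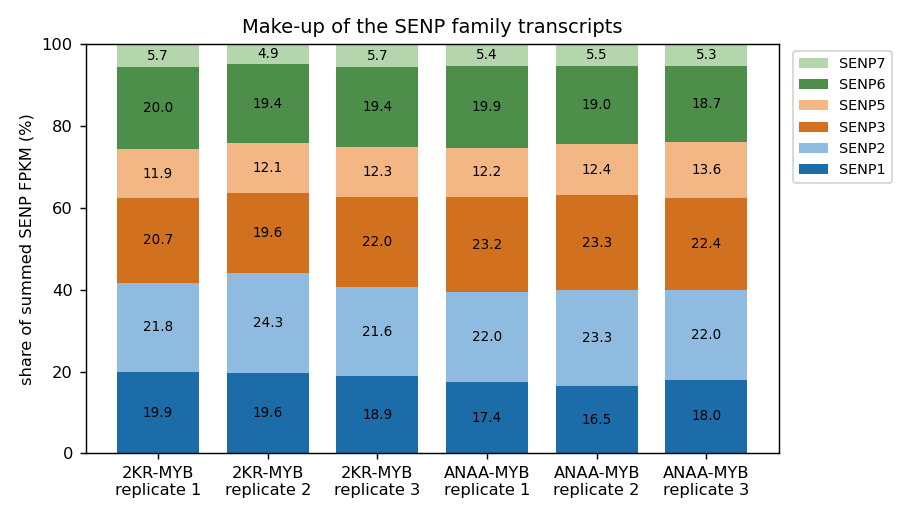
Share of each SENP gene in the summed FPKM of the 6 SENP genes (percent, stacked to 100), 1 bar per library. The SENP1 share was 18.9% to 19.9% with 2KR-MYB and 16.5% to 18.0% with ANAA-MYB, and the SENP3 share 19.6% to 22.0% and 22.4% to 23.3%.

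DESI1, DESI2 and USPL1 are proteases of other folds than the SENP family. DESI2 (ENSG00000121644, chromosome 1, 244653126 to 244709033), named for its likeness to the SUMO isopeptidase DESI1, came closest to the threshold. It measured 31.2, 31.6 and 32.9 FPKM with 2KR-MYB and 36.6, 38.1 and 41.7 FPKM with ANAA-MYB. The gap between the groups was wider than the range of the 2KR-MYB libraries and narrower than that of the ANAA-MYB libraries. The means were 31.9 ± 0.927 and 38.8 ± 2.63 FPKM (SD, n = 3 each). The log2 fold change of -0.27 (95% interval -0.41 to -0.14) had an adjusted p of 0.012 in limma, short of 0.01. DESI2 passed among genes averaging 5 FPKM or more (adjusted p = 0.0099) and with a robust variance prior (adjusted p = 0.0092), and over all alternatives the adjusted p lay between 0.0092 and 0.043.

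DESI1 (ENSG00000100418, chromosome 22, 41598028 to 41621043), a deSUMOylating isopeptidase, measured 18.6, 19.8 and 19.6 FPKM with 2KR-MYB and 20.8, 20.3 and 21.0 FPKM with ANAA-MYB. The ANAA-MYB libraries all lay higher, yet the log2 fold change was only -0.093 (95% interval -0.21 to 0.022, limma adjusted p = 0.20). The level of DESI2 relative to DESI1 in the same library, taken up after the values were seen, was 1.68, 1.59 and 1.68 with 2KR-MYB and 1.76, 1.88 and 1.99 with ANAA-MYB. USPL1 (ENSG00000132952, chromosome 13, 30617920 to 30660766), a SUMO isopeptidase of Cajal bodies, measured 14.0, 13.3 and 13.1 FPKM with 2KR-MYB and 11.5, 11.8 and 12.6 FPKM with ANAA-MYB. Its groups were apart in the opposite direction to DESI1 and DESI2. Its log2 fold change was 0.16 (95% interval 0.022 to 0.29, limma adjusted p = 0.084; exact two-sided permutation p = 0.1). Together these 3 genes summed to 63.8, 64.7 and 65.6 FPKM with 2KR-MYB and to 68.9, 70.2 and 75.4 FPKM with ANAA-MYB.

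UXT (ENSG00000126756, chromosome X, 47651796 to 47659180) measured 90.6, 86.1 and 87.7 FPKM with 2KR-MYB and 101, 98.6 and 82.4 FPKM with ANAA-MYB. The third ANAA-MYB replicate was the lowest of all 6 libraries and the other two ANAA-MYB replicates were the highest, so the rescues overlapped. The log2 fold change was -0.085 (95% interval -0.26 to 0.090, limma adjusted p = 0.44; exact two-sided permutation p = 0.4). It depended on single ANAA-MYB libraries, at -0.033 without the first (limma adjusted p = 0.80), -0.047 without the second (0.74) and -0.18 without the third, which also had the greatest relative depth (0.035). Upper quartile scaling gave -0.042 and quantile normalization -0.041. UXT-AS1, an antisense gene whose 5′ part overlaps that of UXT, measured 21.0, 20.8 and 21.5 FPKM with 2KR-MYB and 28.5, 22.2 and 23.4 FPKM with ANAA-MYB, without overlap (log2 fold change -0.21, limma adjusted p = 0.11). The libraries were strand-specific, but the strand setting of the counting is not given in the sources used here.

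UXT transcripts outnumbered those of SENP1 in every library. The ratio of UXT to SENP1 was 3.15, 3.05 and 3.06 with 2KR-MYB and 4.02, 4.03 and 2.99 with ANAA-MYB. It was nearly constant between 2KR-MYB cultures and fell on both sides of them in the ANAA-MYB rescue. On the log2 scale the difference was -0.24, and -0.38 without the third ANAA-MYB replicate.

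Positions add a measurement that choosing the genes by name did not use. For each gene the 20 nearest tested genes on its chromosome, 10 on each side, were set beside it. Around DESI2, on the long arm of chromosome 1, 18 of 20 neighbours between MTR and ZNF669 were lower in the 2KR-MYB rescue, 9 of them past the threshold. The median log2 fold change of these neighbours was -0.30, against -0.27 for DESI2 itself. The difference of DESI2 was thus of the size of that of its neighbours. Around UXT, 18 of 20 neighbours between NDUFB11 and TBC1D25 were lower with 2KR-MYB, with a median of -0.19 and 5 past the threshold. UXT, at -0.085, stood nearer to 0 than this median by 0.11. The neighbours past the threshold around DESI2 and UXT were all lower with 2KR-MYB, the direction in which 7.42% of all tested genes passed. The neighbours of UXT include the overlapping UXT-AS1 (-0.21), and those of SENP3 include the read-through gene SENP3-EIF4A1 (0.27). SENP1 went the other way from its surroundings, at 0.15 against a median of -0.084, where 12 of 20 neighbours were lower with 2KR-MYB. USPL1 (median of neighbours 0.041) and SENP3 (-0.054) also lay farther from 0 than the medians of their neighbours, while SENP2 (-0.10) lay nearer to it. These medians keep the sign, so rises and falls offset each other. Single neighbours lay farther from 0 than USPL1 and SENP3, such as HSPH1 (0.73) beside USPL1 and CD68 (-1.51) beside SENP3. Around SENP5, SENP6, SENP7 and DESI1 the medians were -0.048, 0.020, 0.014 and -0.062. Of these, SENP5 (-0.079) and DESI1 (-0.093) lay farther from 0 than their medians too, while SENP6 (0.011) and SENP7 (-0.010) lay nearer to it. These medians describe 1 pair of clones and carry no test.

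The genes that work with the proteases were listed by role. Of 47 related genes, 45 were tested and 0 passed the threshold in limma, against 13.0% of all tested genes, with 12 at an unadjusted p under 0.05 (39.4% of all tested genes). Their median log2 fold change was -0.023, with 17 above 0 and 28 below, and it turned to 0.018 after upper quartile scaling and 0.019 after quantile normalization. SENP8, a member of the SENP family that acts on NEDD8 and not on SUMO, was left untested at 0.758 to 1.18 FPKM, and SUMO4 was at 0.0957 FPKM or less. Of the 3 tested SUMO proteins, SUMO3 measured 74.0, 71.3 and 74.2 FPKM with 2KR-MYB and 81.1, 88.5 and 80.0 FPKM with ANAA-MYB (log2 fold change -0.18, limma adjusted p = 0.035), while SUMO2 had a log2 fold change of 0.046. For SUMO3 the limma adjusted p was 0.086 after upper quartile scaling and 0.13 after quantile normalization. The E1 and E2 enzymes had a median of 0.078, and of 0.12 and 0.13 under these scalings. Among 13 E3 ligases and enhancers, with a median of -0.0046 that turned to 0.037 and 0.029 under these scalings, ZNF451 came nearest to the threshold. It stood at 20.6, 21.0 and 20.5 FPKM with 2KR-MYB and 17.2, 16.4 and 18.3 FPKM with ANAA-MYB (log2 fold change 0.25, limma adjusted p = 0.014), and passed after upper quartile scaling (limma adjusted p = 0.0058) and quantile normalization (0.0068), with a range of 0.0058 to 0.050 over the alternatives.

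RNF4, a ubiquitin ligase that recognises SUMO chains such as those cut by SENP6 and SENP7, differed by a log2 fold change of -0.20 between the rescues (limma adjusted p = 0.041). DAXX, which binds SUMO in PML nuclear bodies, had one of -0.16 (limma adjusted p = 0.038), and its libraries did not overlap between the rescues. After upper quartile scaling the limma adjusted p was 0.055 for RNF4 and 0.07 for DAXX, and after quantile normalization 0.051 and 0.098. Among 6 partners of SENP3 in ribosome assembly the median was -0.042, and -0.00091 and -0.0042 under these scalings. Without the scalings, 5 of the 6 lay below 0, on the same side as SENP3. WDR18 stood lowest, at -0.23, and its libraries were apart between the rescues (limma adjusted p = 0.11). LAS1L was at 42.0 ± 3.74 FPKM with 2KR-MYB and 35.05 ± 1.78 FPKM with ANAA-MYB (SD, n = 3 each; log2 fold change 0.25, limma adjusted p = 0.035), the opposite direction to SENP3, and it passed after quantile normalization (limma adjusted p = 0.0096, in a range of 0.0096 to 0.11 over the alternatives). PELP1, the scaffold of this complex, had a log2 fold change of -0.0034, which turned to 0.039 and 0.038 under the same scalings.

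UXT is a subunit of a prefoldin-like complex built around URI1. The other 10 listed members of this complex had a median log2 fold change of -0.069, with 8 below 0, and the smallest limma adjusted p was 0.057. Their median was -0.026 after upper quartile scaling and -0.022 after quantile normalization, where PFDN2 (-0.00048) turned to 0.043 and 0.049. URI1 was at 34.0 ± 2.87 FPKM with 2KR-MYB and 35.01 ± 1.45 FPKM with ANAA-MYB (SD, n = 3 each). The ATPases RUVBL1 and RUVBL2, which belong to several other complexes too, had log2 fold changes of -0.16 and -0.19, and PDRG1, a prefoldin-like subunit, had one of 0.15. The 4 subunits of canonical prefoldin that UXT's complex does not contain had a median of 0.010.

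Likeness of profiles was measured over the 9260 genes whose mean reached 5 FPKM. Those whose centred log2(FPKM + 1) values over the 6 libraries lay nearest to SENP1 were OSER1, SLC39A6 and CHMP2B, at root mean square distances of 0.016, 0.017 and 0.018. Their log2 fold changes were 0.16, 0.13 and 0.14, beside 0.15 for SENP1. Near to UXT were APOL1 and TERF2, at distances of 0.025 and 0.026. Their log2 fold changes were -0.11 and -0.13, beside -0.085 for UXT. Choosing genes by a small distance over these same libraries forces their log2 fold changes to lie near that of SENP1 or UXT, so this nearness is not a separate result. The distances are a description over 6 libraries of 2 clones, with no test.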

How the data were processed

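RNA-Seq of 6 K562 libraries was analysed (3 2KR-MYB rescue, 3 ANAA-MYB rescue), grouped by their titles. Per the labels and the study's methods, the authors sequenced stranded poly(A) libraries in pairs of 150 bp, demultiplexed with bcl2fastq 2.18.0.12, trimmed with Trimmomatic 0.36, aligned with TopHat2 2.1.1 (GRCh38), used Cufflinks and Cuffdiff 2.2.1, and deposited 1 FPKM value for each gene in each replicate. Which annotation and which scaling were used is not given in the sources used here. A further 12 columns of per-sample values were not used.

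Symbols were found for 55854 of 58288 gene IDs. Positions came from RefSeq on GRCh38. Genes averaging 1 FPKM or more entered limma 3.58.1 (R 4.3.3) as log2(FPKM + 1) (rescue as the only term, empirical Bayes with trend), with Benjamini-Hochberg adjustment over all 12634 tested genes and a threshold of 0.01. Each member was also tested alone by exact two-sided permutation of the libraries. Steps were tested on simulated data. Alternatives were pseudocounts of 0.1 and 0.01, no filter, a mean of at least 5 FPKM, 2 scalings, leaving out each library in turn, a robust prior, a block for the replicate number, a threshold of 0.05, and 10 or 40 neighbours.

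The members and lists were chosen with earlier results of these data known. Named were the 10 genes, MYB, at most 5 genes past the threshold per list and the 3 most alike to SENP1 and to UXT. Some genes under this rule and in the lists are not reported here. No related gene passed, so those named from the lists, and SENP3-EIF4A1, UXT-AS1 and the markers with values, were chosen after their values were seen. Figures were drawn with Python 3.11.15 and matplotlib 3.10.9.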

Additional observations from a re-analysis of the deposited data

How the results depend on the processing

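None of the 10 genes passed in any fit that left out a library, with a pseudocount of 0.1 or 0.01, with no filter, under either scaling or with the replicate block. DESI2 passed with a mean of at least 5 FPKM, with a robust prior and at a threshold of 0.05 (1 gene each, log2 fold change -0.27). SENP2 turned from -0.0077 to 0.035 after upper quartile scaling and 0.034 after quantile normalization, and SENP7 from -0.010 to 0.029 and 0.0083. With each library left out, SENP2 ranged from -0.048 to 0.027, SENP6 from -0.0067 to 0.032 and SENP7 from -0.069 to 0.0715, the ends beyond 0 being reached without 2KR-MYB replicate 1, 3 and 2; SENP2 also turned without ANAA-MYB replicate 2. The cause was not tested.

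The calls over all genes numbered 1642 (704 higher with 2KR-MYB), and 942 (393) with no filter and 3402 (1522) at 0.05. Without 1 library they ranged from 831 to 1139 (314 to 457), with fewer samples in the fit. The deviations of same-numbered replicates had r of -0.052, -0.035 and -0.0026, beside -0.035 to 0.064 for pairs with other numbers. Which replicates shared a batch cannot be told from these values. The replicate block gave 1089 calls (411).

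At 0.05, 1 gene passed in each of the lists of SUMO proteins, E3 ligases, SUMO-targeted ubiquitin ligases, PML body substrates and SENP3 partners; after upper quartile scaling 1 E3 ligase passed, and after quantile normalization 1 E3 ligase and 1 SENP3 partner.

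With 10 neighbours the medians were -0.12 (SENP1), -0.012 (SENP2), -0.14 (SENP5) and -0.35 (DESI2). With 40 they were -0.032 (SENP1), -0.033 (SENP2) and -0.053 (SENP7). After upper quartile scaling, which moved the median of all genes by 0.041, they were -0.041 (SENP1), -0.062 (SENP2), -0.015 (SENP3), -0.0062 (SENP5), 0.060 (SENP6), 0.056 (SENP7), -0.021 (DESI1) and -0.15 (UXT). For the 10 genes, the other log2 fold changes kept their direction and their side of the threshold, and the SENP shares, the log2 ratio of UXT to SENP1 and the other neighbour medians moved by less than the spread between replicates. The signs of related genes and of list medians were tried only under the 2 scalings, a choice made after seeing the data (PELP1 turned from -0.0034 to 0.039 and 0.038), and the ratios of SENP1 to SENP3 and of DESI2 to DESI1 under none.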
